A study of Mus musculus with 10 samples.

Results

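The ubiquitin-specific protease family was taken as every protein-coding mouse gene whose symbol is Usp followed by a digit. The annotation holds 56 such genes, all 56 are in the files, and 54 were above 0 in at least 1 library, among 18703 protein-coding genes above 0. In all, the files hold 35501 genes. One member by symbol, Usp6nl, encodes a GTPase-activating protein for Rab proteins and not a protease. The 3 other loci with such a symbol, which are not protein-coding, were left out, namely the pseudogene Usp17le-ps and the non-coding Usp46os1 and Usp46os2.

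The 10 libraries came from mouse metaphase II oocytes, mature eggs halted in the second meiotic division until sperm arrive. Oocytes with an intact germinal vesicle were taken from ovaries of ICR mice aged 6 to 8 weeks and matured in vitro for 16 h at 37 °C in 5% CO2. Of these, 5 were controls and 5 were kept with TubA at 0.1 µg/mL for the 16 h. TubA usually stands for tubastatin A, which blocks HDAC6, an enzyme that deacetylates tubulin. The labels give only the short name. No allele, transgene or vehicle is named for either group, and the labels do not tie an oocyte to an animal or a culture dish. The p-values below therefore measure the spread between libraries, which may be partly technical. Each library was amplified from 1 cell with Smart-Seq2, and the values are in TPM, a transcript level per length that sums to 1000000 in each library and keeps no sequencing depth.

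Ubiquitin is a small protein that is joined to other proteins, often as chains that send them to the proteasome. Ubiquitin-specific proteases are cysteine proteases that take it off again, and different members act on histones, on DNA repair proteins, on receptors at endosomes or on the proteasome itself. A mature oocyte makes almost no new RNA, so its messenger RNAs are a store laid down during growth that is used, and partly cleared, during maturation and after fertilisation.

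The catalytic cysteine lies in a short conserved stretch called the cysteine box. The 30 coding bases around that cysteine are shown for the members of highest level and for low-level relatives of them. A transcript was counted as holding the box where its annotated coding sequence matched a search pattern for this stretch. The cysteine codon is in capitals, 5′ to 3′ on the coding strand, and the sequences are those of the GENCODE M21 transcripts on GRCm38.
Usp2: aaccttgggaacacgTGCttcatgaactca
Usp15: aacttgggaaatacgTGTttcatgaactca
Usp4: aacctggggaacactTGCttcatgaactct
Usp21: aatctaggaaatacaTGCttcctgaatgcc
Usp28: aatgttggcaacacaTGTtggttcagtgct
Usp25: aatgtcggcaacaccTGCtggtttagtgca
Usp1: aaccttggcaacactTGTtatctgaatagt
Usp46: aattttggaaacacaTGCtactgtaactcc
Usp12: aattttgggaataccTGCtactgcaactca
Usp9x: aatgctggtgctactTGTtacatgaactct
Usp9y: aatgctggtgctactTGTtatatgaactct
Those of Usp15 (chr10:123146803-123146832, minus strand), Usp28 (chr9:49003944-49003973, plus) and Usp1 (chr4:98928316-98928345, plus) each lie within 1 exon. Those of Usp2 (chr9:44089168-44090044, plus), Usp46 (chr5:74032491-74037035, minus) and Usp21 (chr1:171285361-171285556, minus) are split by an intron. Such a stretch was found in an annotated coding sequence of 52 of the 56 members. The 4 without it were Usp39, Usp53, Usp54 and Usp6nl. Usp39 is a splicing factor whose protease domain is known to be inactive, and the coding sequences of Usp53 and Usp54 did not match the search pattern.

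The 12 oocyte markers were all above the filter on low values, with a summed level of 32453 ± 5428 TPM in controls and 34024 ± 7037 TPM with TubA (SD, n = 5 each). The 12 cumulus and granulosa markers summed to between 19.6 and 42.6 TPM in controls and between 19.4 and 38.8 TPM with TubA, and Amh and Foxl2 were listed at 0 in every library. Markers of theca and stroma summed to 14.4 ± 7.59 and 15.2 ± 4.33 TPM, and those of blood, immune and endothelial cells to 56.4 ± 20.8 and 54.1 ± 16.3 TPM, mostly Pecam1 and C1qb. No marker that entered the test for TubA passed it. Those tested were all 12 oocyte markers, 3 of 12 of cumulus and granulosa and 3 of 9 of theca and stroma. For blood, immune and endothelial cells 6 of 9 were tested. The rest were below the filter on low values. Clustering of the libraries over the genes above that filter, without the members, was cut at 2 sets. That number was set and not estimated, and the labels do not name the sets. One held control libraries 1, 2 and 3 with TubA libraries 1 and 2. The other held control libraries 4 and 5 with TubA libraries 3, 4 and 5.

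Summed over all 56 members, the family held 3155 ± 411 TPM in controls (2852 to 3795) and 3013 ± 182 TPM with TubA (2784 to 3280.1, SD, n = 5 each), which is 0.316 ± 0.0411% and 0.301 ± 0.0182% of all TPM. The groups overlapped between 2852 and 3280.1 TPM, with control libraries 3 and 5 above every TubA library and TubA library 2 below every control. A few genes carried most of it, with 4 members making up 50.1% of the family's TPM and 12 members 82.8%. Among the members, 29 had a mean of at least 10 TPM, 12 of at least 50 TPM and 10 of at least 100 TPM. The 42 members with a mean of at least 1 TPM entered the test for TubA, and their median level was 22.0 TPM against 11.8 TPM for all genes tested.

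**Figure D1:**
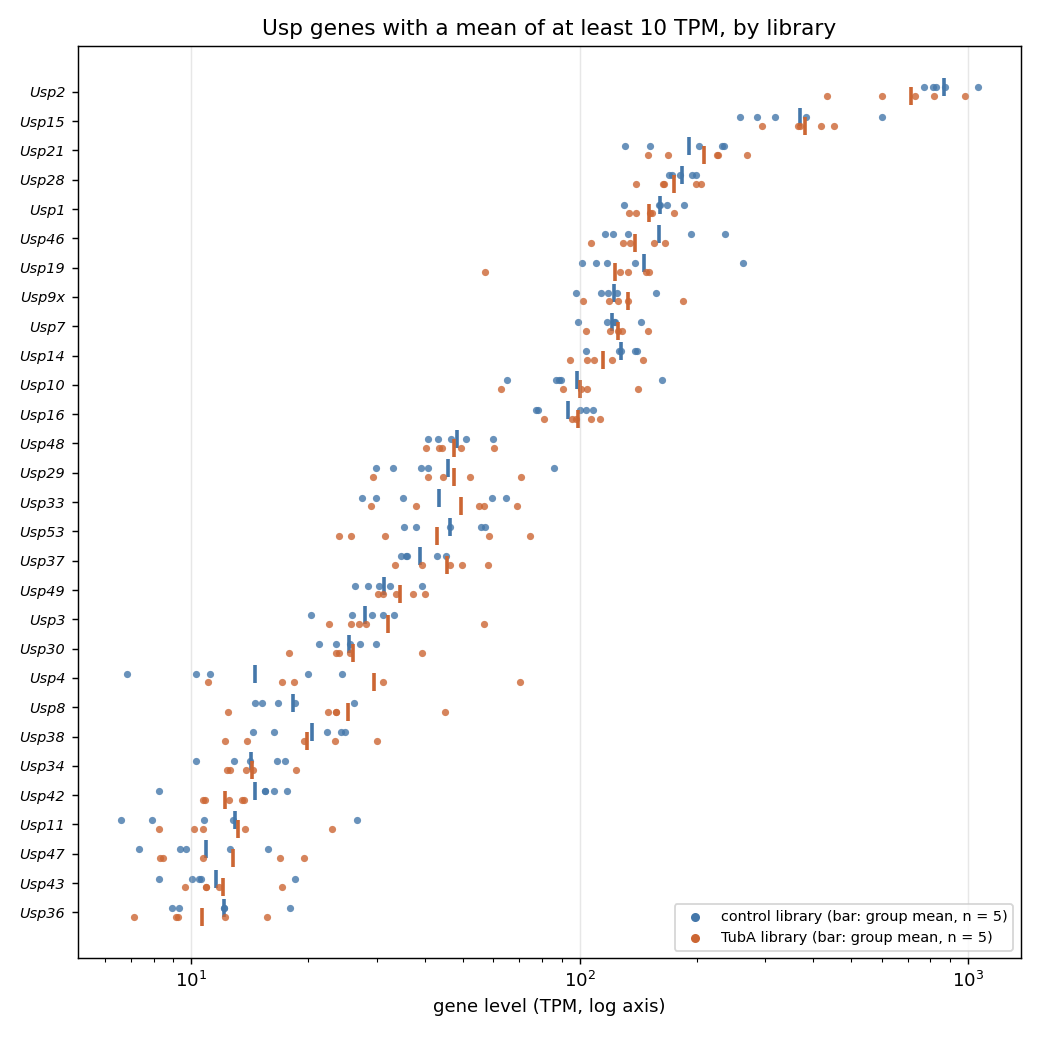
TPM of each Usp gene with a mean of at least 10 TPM, ordered by level, on a log axis, with blue points for the 5 control libraries, orange points for the 5 TubA libraries and a bar at each group mean. Usp2 leads with values from 432 to 1059 TPM, and the groups overlap for every gene shown.

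Usp2 was the most abundant member. It encodes a protease known for acting on cyclin D1, MDM2 and receptors at endosomes, and it ranked 170 among protein-coding genes by mean TPM, in the top 0.909%. Its level was 812, 874, 773, 828 and 1059 TPM in control libraries 1 to 5 and 432, 601, 982, 732 and 819.6 TPM in TubA libraries 1 to 5. TubA libraries 1 and 2 were the lowest of the 10, TubA library 3 was above 4 of the controls, and the groups overlapped. The means were 869 ± 112 and 713 ± 209 TPM, a log2 difference of −0.33 (95% interval −0.78 to 0.12, limma adjusted p = 0.9999). Without TubA library 1 the difference was −0.16. With Usp2 left out, the family sum was 2286 ± 426 TPM in controls and 2299 ± 204 TPM with TubA.

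Usp15, which acts in TGF-beta signalling and with splicing factors, was the next member. It was listed at 258, 287, 601, 319 and 384 TPM in controls and 417, 365, 295, 370.4 and 451 TPM with TubA. Control library 3 stood above all others, and the remaining 9 libraries overlapped. Usp21, which removes ubiquitin from histone H2A, followed at 152, 131, 236, 203 and 233 TPM in controls and 150.4, 169, 227, 226 and 269.9 TPM with TubA. Its libraries of both groups were interleaved, with library 1 and 2 of each group below the rest of that group.

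Usp28 and Usp1 varied least of all members with at least 10 TPM. Usp28, a DNA damage response protease that also acts on MYC, was at 173, 169.6, 199, 181 and 195 TPM in controls and 164, 165, 205, 139.8 and 199 TPM with TubA. Usp1, which with its partner Wdr48 removes ubiquitin from FANCD2 and PCNA, was at 186, 168, 129.8, 161 and 160.4 TPM in controls and 175, 139.7, 154, 152 and 134 TPM with TubA. The highest library was 1.47 times the lowest for Usp28 and 1.43 times for Usp1, a coefficient of variation of 11.5% for each over the 10 libraries. Usp7 and Usp16 came next in evenness, at 12.6% and 13.6%.

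Usp7 encodes a nuclear protease of MDM2 and p53. Its level was 98.8, 117, 144, 123 and 124 TPM in controls and 149.8, 125, 104, 128 and 119.8 TPM with TubA. Usp16, a histone H2A protease needed for mitotic chromosomes, was at 78.1, 104, 77.2, 100.5 and 108 TPM in controls and 113, 95.4, 97.8, 81.0 and 107 TPM with TubA. Neither group stood above the other for either gene, and the differences were 0.05 (−0.31 to 0.41) for Usp7 and 0.08 (−0.29 to 0.46) for Usp16 on the log2 scale.

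The other members above 90 TPM were Usp46, Usp19, Usp9x, Usp14 and Usp10. Usp46, which is activated by WDR48 and WDR20, was at 193, 133, 237, 116 and 122 TPM in controls and 135, 155, 129.7, 107 and 166 TPM with TubA. Usp19, whose main form is anchored in the endoplasmic reticulum, was at 118, 110.4, 263, 101 and 139 TPM in controls and 57.1, 149, 127, 133 and 151 TPM with TubA. Control library 3 was the highest for both genes, and TubA library 1 was the lowest of all for Usp19.

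Usp9x, an X-linked protease of endosomal and cell polarity proteins, was at 114, 125, 158, 119 and 97.6 TPM in controls and 184, 125, 102, 133 and 119 TPM with TubA. Usp14, which trims ubiquitin at the proteasome, was at 141, 128, 139, 104 and 126 TPM in controls and 146, 105, 94.3, 109 and 121 TPM with TubA. Usp10, a partner of the stress granule protein G3BP1, was at 88.3, 64.8, 163, 87.0 and 89.5 TPM in controls and 141, 90.4, 62.9, 105 and 101 TPM with TubA. For Usp9x and Usp14 the highest library was TubA library 1, and for Usp10 it was control library 3. The 2 groups overlapped for all 3 genes. The Usp14 values carry a limit, since 30.99% of its 31-base words also occur in Thoc1, a gene on the opposite strand that overlaps it and was at 27.4 TPM.

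At the other end, 14 members had a mean below 1 TPM and were not tested. Usp9y, on the Y chromosome, and Usp17ld were listed at 0 in every library. The other 12 were Usp35, Usp26, Usp44, Usp40, Usp12, Usp27x, Usp17le, Usp25, Usp17lc, Usp17lb, Usp17la and Usp18, with means from 0.0137 TPM for Usp18 to 0.941 TPM for Usp35. Usp18, which removes the ubiquitin-like protein ISG15, was thus the lowest member above 0.

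Near relatives within the family were often far apart in level. Usp46 had a mean of 149 TPM and its relative Usp12 one of 0.545 TPM, although 25 of the 30 bases shown for them are identical. The lowest Usp46 library, at 107 TPM, stood far above the highest Usp12 library, at 1.11 TPM. Usp28 was at 179 TPM and Usp25 at 0.276 TPM, also with 25 of 30 bases identical. Usp15 was at 375 TPM, against 22.1 TPM for Usp4 and 13.1 TPM for Usp11, its relatives with the same domain layout. Usp9x was at 128 TPM while Usp9y was at 0, with 29 of 30 bases identical.

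The same order held for Usp33 over Usp20 (46.5 and 3.48 TPM), Usp49 over Usp44 (32.9 and 0.584 TPM), Usp38 over Usp35 (20.1 and 0.941 TPM) and Usp29 over Usp26 (46.7 and 0.915 TPM). Other relatives were close, as with Usp5, which recycles free ubiquitin chains, and its relative Usp13 (9.13 and 8.43 TPM). So were Usp42 and Usp36 (13.4 and 11.4 TPM) and the SAGA complex protease Usp22 with Usp51 (6.38 and 5.58 TPM). A further SAGA relative, Usp27x, was at 0.496 TPM. Of the 42 tested members, 35 share under 5% of their 31-base words with other genes above 0, and Usp9x shares 5.34%. Besides Usp14, the members sharing at least 20% were Usp49 with the read-through locus Gm20517 (52.2%) and Usp1 with Gm5841 (31.4%), the latter listed at only 0.153 TPM.

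Not all of this RNA encodes a protease. Of the family's TPM, 77.0% was on transcripts annotated as protein-coding, 15.7% on transcripts with a retained intron and 6.86% on transcripts marked for nonsense-mediated decay. The share on transcripts whose annotated coding sequence holds the cysteine box was 70.9%, with 71.9 ± 4.35% in controls and 70.2 ± 3.16% with TubA (SD, n = 5 each). Among the 29 members with at least 10 TPM, 15 had at least 90% of their level on such transcripts and 8 had under 60%. The split of a gene's level between its transcripts was estimated by the authors' program from reads that several transcripts share, so these shares are less direct than the gene sums. Several transcripts counted as lacking the box are annotated as incomplete fragments.

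**Figure D2:**
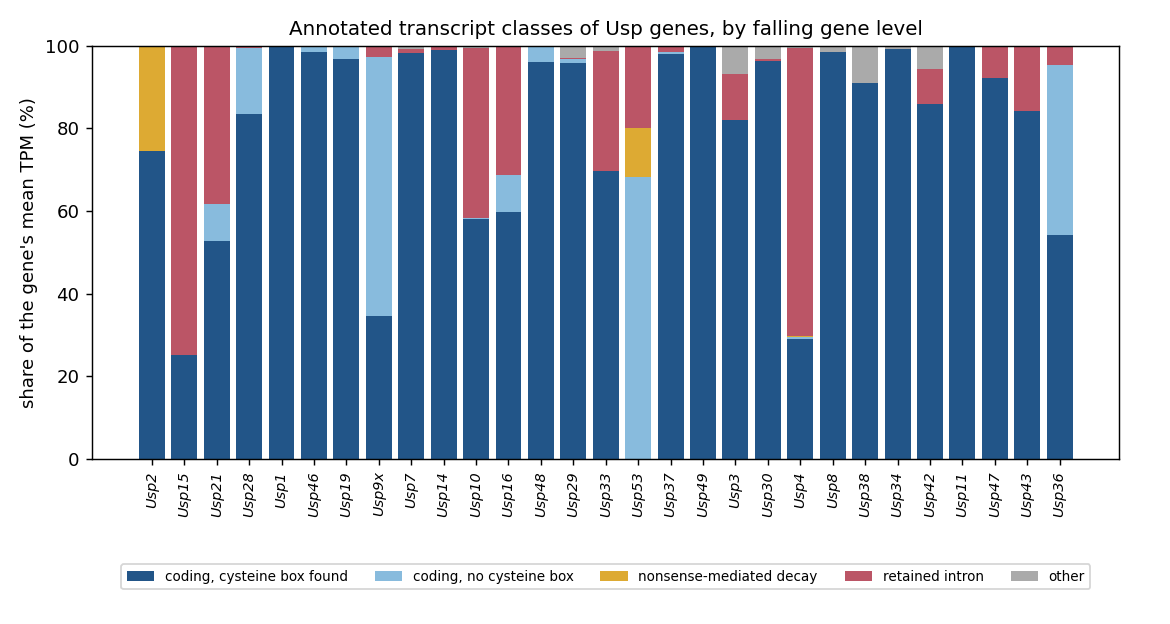
Share of the mean TPM of each of the 29 Usp genes with at least 10 TPM, as stacked bars from 0 to 100%, on coding transcripts with the cysteine box, coding transcripts without it, and transcripts annotated as nonsense-mediated decay, retained intron or other. Usp15 and Usp4 lie mostly on retained-intron transcripts, while Usp1 and Usp46 lie almost wholly on transcripts with the box.

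Usp2 RNA was mostly a short form. Usp2-206, a coding transcript of 393 codons that holds the cysteine box, made up 59.7% of the gene at 506, 555, 416, 504 and 575 TPM in controls and 319, 376, 599.7, 425 and 448 TPM with TubA. The long form Usp2-201, of 619 codons, was at 105 ± 31.1 TPM in controls and 77.9 ± 49.8 TPM with TubA. Usp2-204, with a reading frame of 43 codons and marked for decay, made up 25.3%, at 224 ± 49.3 and 177 ± 59.8 TPM. All 3 forms were lowest in TubA library 1.

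For Usp15, 23.2% of the level was on Usp15-201, the coding transcript of 952 codons with the box. It was at 76.3, 87.9, 66.2, 94.6 and 103 TPM in controls and 73.5, 83.1, 112, 88.1 and 86.4 TPM with TubA. In control library 3, the library in which the Usp15 sum was highest, this transcript was the lowest of the 10. The excess there was on 2 retained-intron transcripts, Usp15-206 at 296 TPM against 49.7 to 179.7 TPM in the other 9 libraries, and Usp15-209 at 81.8 TPM against 0.687 to 65.4 TPM.

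Usp9x-201, the full-length coding transcript of 2554 codons, varied little, at 39.2, 43.9, 38.6, 43.9 and 44.6 TPM in controls and 56.1, 46.6, 42.9, 42.0 and 42.5 TPM with TubA. It made up 34.5% of the Usp9x sum, and most of the rest was on Usp9x-203 (37.1%) and Usp9x-205 (18.4%), both incomplete fragments. A further fragment, Usp9x-206, was at 26.9 TPM in control library 3, 55.5 TPM in TubA library 1 and 5.97 TPM in TubA library 2, and at 2.09 TPM or less elsewhere. Usp4 RNA was 69.6% on the retained-intron transcript Usp4-208. Usp28-208, a fragment without the box, was at 76.8 TPM in TubA library 3 and between 3.24 and 54.1 TPM elsewhere. Usp10 and Usp16 also carried a large retained-intron transcript, Usp10-208 at 41.0% and Usp16-203 at 31.03% of the gene.

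The coding transcript of Usp21 listed at the highest level differed between libraries. Usp21-201, of 566 codons, and Usp21-203, of 569 codons, differ in their coding sequence at 1 place, where exon 4 of Usp21-203 starts 9 bases earlier and puts 3 extra codons directly before the cysteine codon. The extra bases, shown in capitals, are chr1:171285376-171285384 on the minus strand of GRCm38, and the junction of exons 3 and 4 is shown for both because the change falls inside the cysteine box itself.
Usp21-201: aatctaggaaatacatgcttcctgaatgcc
Usp21-203: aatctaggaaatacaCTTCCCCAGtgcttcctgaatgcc
Usp21-201 was at 101, 85.2, 123, 132 and 119.5 TPM in controls and 31.7, 12.1, 133, 119 and 151 TPM with TubA. Usp21-203 was at 0, 0.485, 0.553, 5.67 and 4.40 TPM in controls and 71.6, 87.1, 0.438, 3.41 and 2.13 TPM with TubA. TubA libraries 1 and 2 thus had Usp21-203 as 47.6% and 51.5% of Usp21, while it was at most 2.79% in the other 8 libraries, and they were the lowest for Usp21-201. The retained-intron transcript Usp21-209 was at 71.8 ± 31.1 TPM in controls and 80.4 ± 25.0 TPM with TubA, and the gene sum of TubA libraries 1 and 2 lay within the range of the others.

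Usp21-203 was a main form in 2 of 5 TubA libraries and in 0 of 5 controls, and both TubA libraries belong to the same library set. The 3 controls of that set had Usp21-203 at 0.553 TPM or less. The 2 transcripts also differ in the non-coding ends of exons 1 and 13, by 30 and 13 bases, and which of the 3 differences the reads support cannot be seen in TPM. This transcript was singled out after its values were seen, and whether TubA, the library set or the estimation of transcript shares plays a part was not tested.

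**Figure D3:**
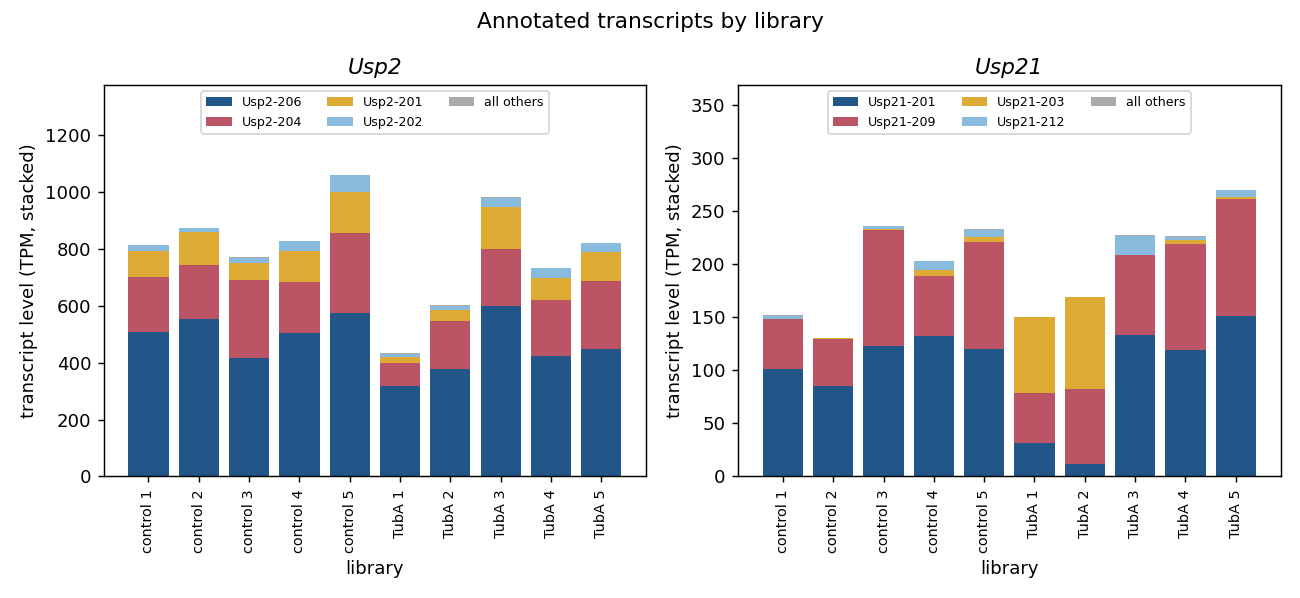
Stacked TPM from 0 of the annotated transcripts of Usp2 (left) and Usp21 (right) in each of the 10 libraries. Usp21-203 (yellow) reaches 71.6 and 87.1 TPM in TubA libraries 1 and 2 and stays at 5.67 TPM or less in the other 8, where Usp21-201 (dark blue) is between 85.2 and 151 TPM.

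TubA against control was tested with limma on log2(TPM + 1) over 11664 genes, with Benjamini-Hochberg adjustment over all of them. Differences are given as TubA minus control on that scale, on which the change of a low gene looks smaller than it is. No member passed an adjusted p of 0.05 (0 of 42, lowest limma adjusted p = 0.9999), where 0.00857% of all genes tested passed, which is 1 gene. At an unadjusted limma p under 0.05 there were 0 members against 2.51% of all genes. Groups that do not overlap were likewise found for 0 members against 0.454% of all genes.

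The members' differences ranged from −0.54 for Usp51 to 0.81 for Usp4, 26 were positive and 16 negative, and their median was 0.05 against 0.01 for all genes. That median was 0.16 without control library 3 and 0.01 without control library 1 or 2 or TubA library 1 or 4. For 35 of the 42 members, or 83.3%, the 95% interval lay inside a 2-fold change in either direction, against 57.0% of all genes tested. The median standard error was 0.27 for members and 0.33 for all genes. Among the most abundant members, the interval reached from −0.40 to 0.58 for Usp15, from −0.35 to 0.62 for Usp21, from −0.42 to 0.26 for Usp28 and from −0.43 to 0.25 for Usp1.

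**Figure D4:**
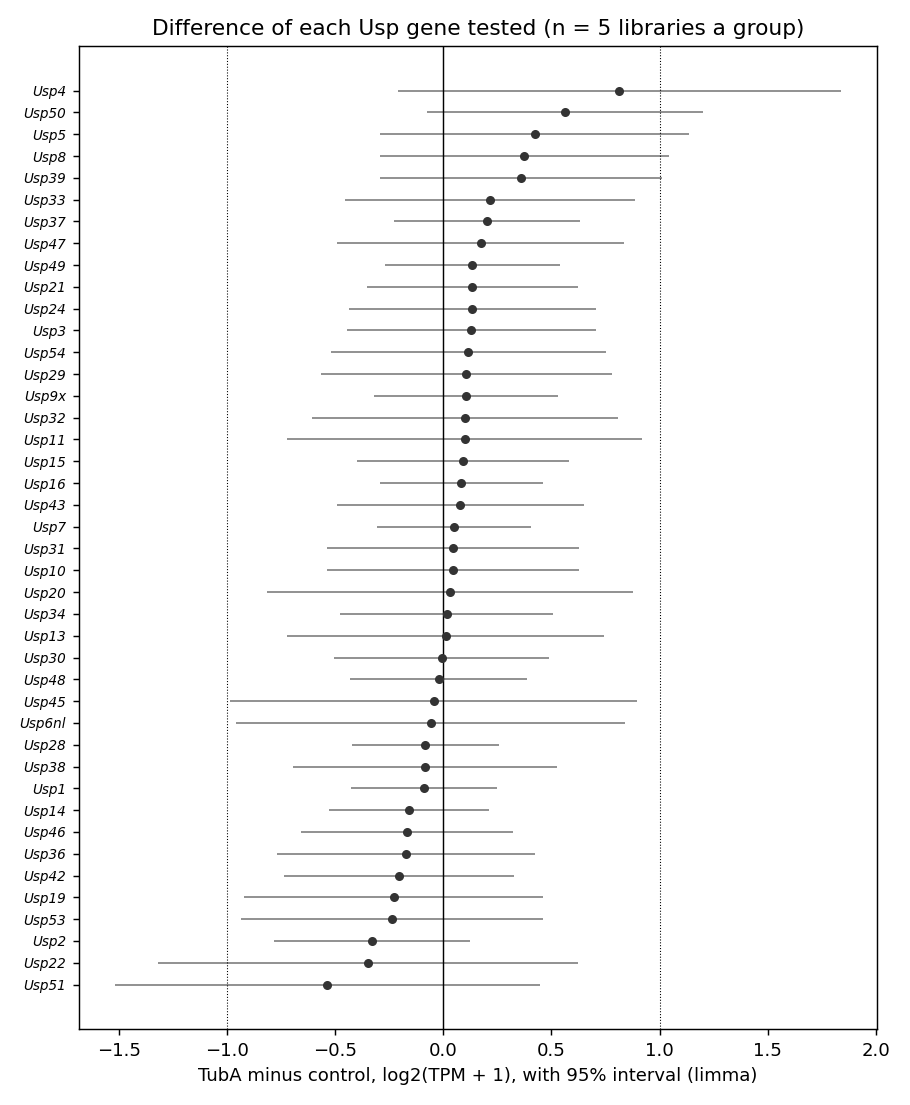
Log2 difference (TubA minus control, log2(TPM + 1)) of each tested Usp gene with its 95% limma interval, and dotted lines at a 2-fold change of TPM + 1. Every interval includes 0, and those of Usp4, Usp51, Usp22 and 4 others reach past a dotted line.

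The 6 members of smallest p were Usp50, Usp4, Usp2, Usp5, Usp8 and Usp39, and none met the threshold. Usp50, a member of little-known function, was at 1.79, 1.51, 2.44, 1.74 and 3.41 TPM in controls and 3.43, 2.90, 2.84, 2.87 and 6.93 TPM with TubA. Only control library 5 lay within the TubA range, and the difference was 0.56 (−0.08 to 1.20, limma unadjusted p = 0.079), or 0.36 without TubA library 5. Most of this low level, 68.6%, was on Usp50-204, a transcript with no reading frame, and 10.3% of the gene's 31-base words also occur in Polr2l. Usp50 lies in opposite orientation on the locus of Usp8, and the labels do not say that strand was kept. Usp8 shared 0% of its 31-base words with other genes above 0, on either strand.

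Usp4 was at 6.85, 10.3, 11.2, 24.5 and 19.99 TPM in controls and 31.2, 11.04, 17.1, 70.4 and 18.4 TPM with TubA. Its highest library was 10.3 times the lowest, and the difference of 0.81 (−0.21 to 1.84) was 0.44 without TubA library 4. Usp8, a protease of receptors at endosomes, was at 15.2, 18.5, 26.3, 16.7 and 14.6 TPM in controls and 44.9, 22.5, 12.4, 23.6 and 23.5 TPM with TubA. TubA library 1 was the highest and TubA library 3 the lowest of all 10 for Usp8, and its difference of 0.38 was 0.15 without the former and 0.59 without the latter.

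Usp5 was at 7.99, 6.44, 14.1, 5.10 and 5.14 TPM in controls and 12.5, 13.0, 7.29, 13.5 and 6.20 TPM with TubA. Usp39 was at 2.94, 1.33, 3.94, 1.62 and 3.25 TPM in controls and 4.19, 5.23, 2.45, 3.21 and 2.73 TPM with TubA. Both genes overlapped between groups, with differences of 0.42 (−0.29 to 1.14) and 0.36 (−0.29 to 1.01). Without control library 3 that of Usp5 was 0.64, and that of Usp39 was 0.22 without control library 2 and 0.24 without TubA library 2.

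By role, no group of members held a gene past the threshold. Members of endosomes, membranes and organelles, led by Usp2, Usp19, Usp9x and Usp33, made up 37.5% of the family. They summed to 1235 ± 127 TPM in controls and 1080.3 ± 189 TPM with TubA, with 5 of 9 differences positive and 0 called. Most of both sums was Usp2, at 869 ± 112 and 713 ± 209 TPM. Histone and chromatin members, led by Usp21, Usp46, Usp7 and Usp16, made up 21.3% at 653 ± 94.7 and 661 ± 51.9 TPM (9 of 12 tested, 5 positive, 0 called). The 4 members that act with RNA or splicing factors, Usp15, Usp10, Usp4 and Usp39, summed to 485 ± 173 and 513 ± 88.8 TPM, with all 4 differences positive and 0 called. Their largest spread came from control library 3.

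DNA repair members, led by Usp28, Usp1, Usp48 and Usp11, had the most even sum, at 426 ± 14.6 and 409 ± 29.3 TPM (2 of 6 positive, 0 called). Most of that sum was Usp28 and Usp1, each with a coefficient of variation of 11.5% over the 10 libraries. It was 15.2% for Usp48, 35.3% for Usp47, 50.9% for Usp11 and 64.2% for Usp45. The 3 members listed under the proteasome and ubiquitin recycling were Usp14, Usp5 and Usp13, the last placed there as a relative of Usp5. They summed to 144 ± 19.8 and 134 ± 21.6 TPM (2 of 3 positive, 0 called). Germ line and placenta members summed to 50.005 ± 22.9 and 52.4 ± 15.5 TPM (2 of 9 tested, both positive, 0 called). Nearly all of this was Usp29, a gene of the imprinted Peg3 region. Usp25 and Usp18, the members linked to ISG15 and innate immunity, summed to 0.252 ± 0.225 and 0.327 ± 0.378 TPM, and neither was tested. Members in none of these groups, led by Usp53, Usp37, Usp38 and Usp34, summed to 162 ± 13.1 and 163 ± 30.4 TPM (6 of 9 tested positive, 0 called).

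Spread between oocytes was compared with that of all genes above the same level. Over the 10 libraries the median coefficient of variation of the 29 members with at least 10 TPM was 26.6% (11.5 to 83.7%), against 30.9% for the 6210 genes of at least 10 TPM. This is a description, with no test, and the genes were not matched on level. In 10 of the 29, the highest library was under 2 times the lowest, and in 10 of the 42 tested it was at least 4 times the lowest. Of the 29, Usp4, Usp11, Usp8 and Usp29 varied most.

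Usp11, an X-linked relative of Usp4 and Usp15 linked to BRCA2, was at 6.58, 10.8, 26.8, 7.91 and 12.8 TPM in controls and 8.25, 10.2, 10.7, 23.0 and 13.8 TPM with TubA. Control library 3 and TubA library 4 were both high. Usp29 was at 33.2, 29.9, 85.9, 39.1 and 40.6 TPM in controls and 70.8, 44.6, 29.4, 52.2 and 40.8 TPM with TubA. Control library 3 and TubA library 1 were the high ones, and the remaining 8 libraries lay between 29.4 and 52.2 TPM.

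A pair of libraries held many of the highest values. Control library 3 was the highest of 10 for 12 of the 42 tested members (28.6%, against 21.5% of all genes) and TubA library 1 for 11 (26.2%, against 12.05%). TubA library 4 was the highest for 7 (16.7%, against 21.1%). Control library 1, control library 2 and TubA library 3 were each the lowest of 10 for 8 members (19.0%). Of all genes, 23.4%, 7.74% and 11.9% were lowest in these libraries. Between the 2 library sets, only Usp53 and Usp24 did not overlap, 2 of 42 members where 5.14% of all genes did not. Usp53 was at 58.4 ± 10.1 TPM (46.3 to 74.3) in the set with control libraries 1 to 3 and at 30.9 ± 6.01 TPM (23.96 to 38.0) in the other, and Usp24 at 1.94 ± 0.320 and 3.11 ± 0.283 TPM (SD, n = 5 each).

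**Figure D5:**
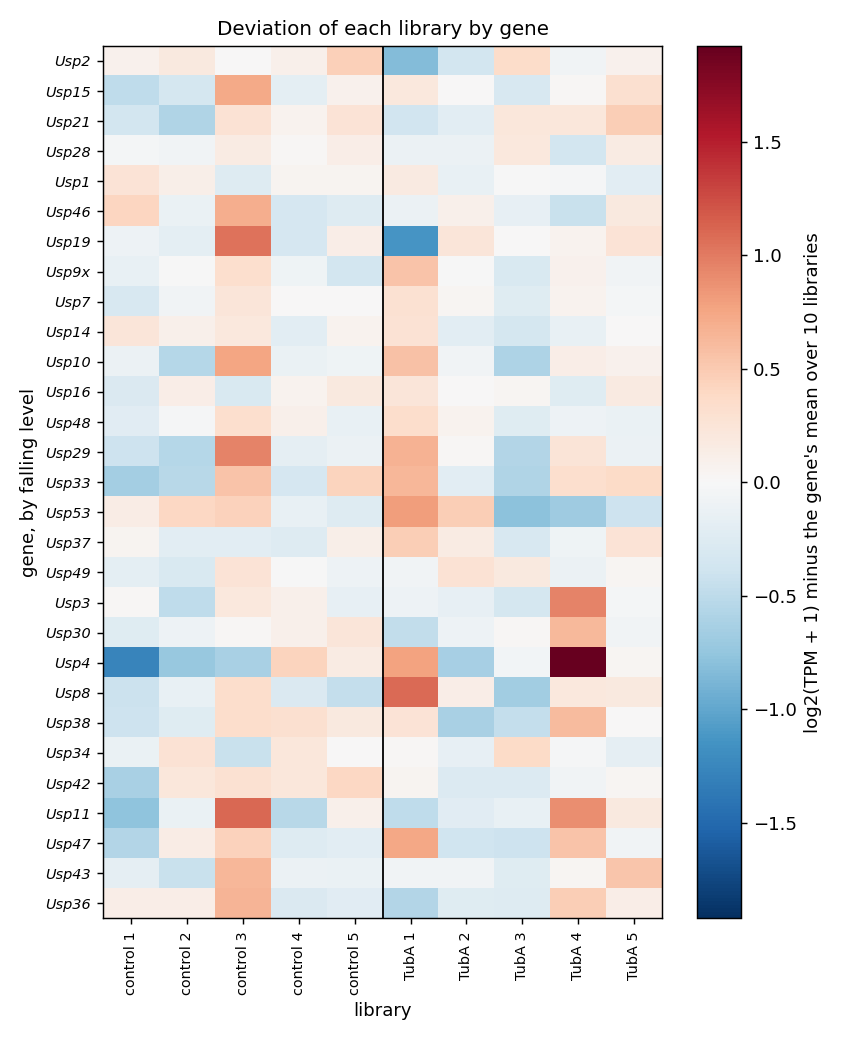
Difference of log2(TPM + 1) in each library from the gene's mean over the 10 libraries, as a colour map of the 29 Usp genes with at least 10 TPM, controls left of the line and TubA libraries right of it. Many of the red extremes are in control library 3 and TubA library 1, and Usp2 and Usp19 are low in TubA library 1.

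Usp2 is also given within each library set, a split made from the data after they were seen. In the set with control libraries 1 to 3, the controls were at 773 to 874 TPM and the TubA libraries at 432 and 601 TPM. The log2 difference was −0.68 (−1.26 to −0.10), an interval not adjusted for the number of genes. There, 2 of 42 members had an unadjusted limma p under 0.05, beside 496 of 11664 genes. In the other set the controls were at 828 and 1059 TPM and the TubA libraries at 732 to 982 TPM, a difference of −0.16 (−0.71 to 0.39). Limma adjusted p was 0.98 and 1 in these fits, so neither passed, and whether the sets differ in the response of Usp2 was not tested.

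The rest of the ubiquitin system was measured from lists. There were 41 other genes of deubiquitinase families in the files, listed by family and not by shown activity. Of these, 37 were tested, 23 differences were positive and 14 negative, 0 were called, and the median was 0.10. They summed to 1782 ± 191 TPM in controls and 1847 ± 205 TPM with TubA, less than the Usp family. The most abundant were Mindy3 (394 ± 39.3 and 427 ± 61.5 TPM) and Mindy1 (277 ± 75.0 and 307 ± 29.4 TPM), which cut long ubiquitin chains, and the ubiquitin C-terminal hydrolases Uchl1 (244 ± 142 and 231 ± 183 TPM) and Uchl3 (243 ± 74.7 and 213 ± 30.3 TPM). Of the Usp genes, only Usp2 had a higher mean than Mindy3.

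Of 23 genes for ubiquitin, its activating enzymes and partners of Usp proteins, 21 were tested, 16 differences were positive and 5 negative, 0 were called, and the median was 0.13. Ubb, which encodes ubiquitin (511 ± 99.5 and 781 ± 528 TPM), and the partners Cdc20 (579 ± 41.2 and 491 ± 73.2 TPM), Mdm4 (411 ± 42.4 and 596 ± 154 TPM) and Wdr20 (390 ± 45.8 and 426 ± 66.3 TPM) were among the most abundant. Wdr20 and Wdr48, which activate Usp46 and Usp12, were thus at 408 and 19.8 TPM over all libraries, beside 149 TPM for Usp46 and 0.545 TPM for Usp12. Mdm4, a target of Usp2 and Usp7, was the only gene of these lists with an unadjusted limma p under 0.05 (0.018, difference 0.50). This is 1 of 21 genes here and 0 of 37 other deubiquitinase genes, beside 2.51% of all genes tested. Mdm4 did not pass after adjustment (limma adjusted p = 0.9999).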

How the data were processed

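Single oocytes (5 control, 5 TubA) were profiled. The deposited files hold TPM per Ensembl transcript. The authors used genome build mm10 and tools that include Bowtie 0.12.2, per the submitters' processing notes. The program that computed abundances, and its annotation, are not stated in those notes or in the labels. TPM keeps no depth, so only the spread between libraries shows the precision. Values as small as 3.18e-11 TPM occur, and whether strand was kept is not stated in the labels.

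Transcripts were summed to genes with GENCODE M21 on GRCm38, the assembly of mm10. Of 115270 transcripts, 113492 matched. The 1778 others held 0.531 to 0.752% of a library's TPM and were left out. The test was limma 3.58.1 (R 4.3.3) with trend and robust moderation on log2(TPM + 1), a pseudocount of 1, for genes whose mean reached 1 TPM, all 10 libraries and no covariate, with Benjamini-Hochberg adjustment and a threshold of 0.05. It was tested on simulated data. Summing and drawing used Python 3.11.15, pandas 2.3.3, numpy 2.4.6 and matplotlib 3.10.9. Coding sequences were translated from the annotation and searched for a cysteine box pattern. Overlap was measured as shared 31-base words. Library sets came from complete-linkage clustering of correlations computed without the members, with the tree cut at 2 sets by choice.

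The members and lists were chosen with earlier results of these data known. Values are given for the 12 most abundant members, the 6 of smallest p, and the 4 most and 4 least variable with at least 10 TPM. Group means are given for up to 4 genes per role or list. The level of 1 listed gene is not reported here. Markers of oocytes, cumulus and granulosa, theca and stroma, and blood, immune and endothelial cells, other genes of deubiquitinase families, and ubiquitin with its partners were further lists. Alternatives were another pseudocount, filters, scalings, array weights, the replicate block, the library set, coding transcripts only, and leaving out each library.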

Additional observations from a re-analysis of the deposited data

Results flagged for a closer look

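A value far from the rest of its group was looked for in 19 members and the family sum, 40 groups in all, and 5 values stood apart by Dixon's criterion of 0.71 of the range. For independent normal values the criterion marks about 1 in 20 groups. Some of these members were picked for large spread or small p, and the groups share libraries. The count of 5 therefore cannot be judged against that rate. Control replicate 3 was the highest of its group for Usp19 (263 TPM, next 139), Usp10 (163 TPM, next 89.5) and Usp29 (85.9 TPM, next 40.6). TubA replicate 1 was the lowest of its group for Usp19 at 57.1 TPM, where the next was 127 TPM. TubA replicate 5 was the highest of its group for Usp50 at 6.93 TPM, where the next was 3.43 TPM.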

How the results depend on the processing

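No member passed the threshold under any of the settings run, including the replicate block and each library left out (0 to 0 members). The count over all genes was 1 (293 at an unadjusted limma p under 0.05). It was 0 at a filter of 5 TPM (166), 0 with the replicate block (313), 0 for protein-coding transcripts only (242), 12 in set A alone (496) and 0 in set B alone (208), and 1 to 1 with 1 library left out. Fits within a set were added after seeing the data, and the cause of these changes was not tested. The members' median difference was 0.05 and lay between 0.01 and 0.16 with 1 library left out. The summed level in controls was 2432 TPM for coding transcripts only, 2286 TPM without Usp2, and 2995 to 3231 TPM with 1 library left out. With TubA it was 2317, 2299 and 2946 to 3069.7 TPM.

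Array weights turned the difference of Usp46 to 0.0803 and of Usp19 to 0.00544. Leaving out 1 library turned 13 differences of named members and left 177 in their direction, with ranges of −0.0209 to 0.283 for Usp15, −0.336 to 0.0272 for Usp19, −0.0191 to 0.200 for Usp9x, −0.0205 to 0.115 for Usp7, −0.0898 to 0.241 for Usp10, −0.0489 to 0.357 for Usp29 and −0.112 to 0.387 for Usp11. Usp2 kept its direction, between −0.459 and −0.163. Unadjusted limma p fell under 0.05 for Usp50 with array weights (0.041) and without control 5 (0.046). It also did for Usp2 with the library set as a term (0.030), without TubA 3 (0.042) and within set A (0.027). The others were Usp4 without TubA 2 (0.039) and Usp51 within set A (0.014). These are 1 of 42 members in each such fit, and 2 of 42 within set A. Over all 11664 genes the counts were 539 with array weights, 351 without control 5 and 396 with the set term. They were 366 without TubA 3, 239 without TubA 2 and 496 within set A. Same-numbered libraries of the groups were not paired. The correlations of their deviations were 0.00308, −0.00484, −0.308, 0.476 and 0.258 for numbers 1 to 5, and 2 of 5 correlated best with their own number. With the replicate block the members' median difference was 0.05.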

Other observations

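Other transcripts of the family were near 0 in some libraries and not in others. Usp1-203, a fragment with the cysteine box, was at 22.6 TPM in TubA library 1, 17.9 TPM in TubA library 2 and 7.46 TPM in control library 2, and at 0.405 TPM or less in the other 7. Usp19-203 was at 3.83e-06 TPM in TubA library 1 and 1.80 TPM in control library 3, the libraries of lowest and highest Usp19 sum, and between 13.2 and 38.0 TPM elsewhere. Usp53-207, marked for nonsense-mediated decay, was listed at 0 in control library 5 and reached 13.8 TPM in control library 2. Usp9x-206 is described with its gene. No test was run on these transcripts, which were singled out by their values.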
